A study of Mus musculus with 10 samples.

Results

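The MHC class I and immunoproteasome genes examined here are 10 genes chosen by name, H2-K1, H2-D1, B2m, Tap1, Tap2, Tapbp, Psmb8, Psmb9, Psmb10 and Nlrc5, of the 54532 genes in the expression table. All 10 were found and all 10 passed the filter on low values, a mean of at least 0.1 FPKM (fragments scaled by gene length and library size). The table holds whole-lung mRNA of 10 wild-type C57BL/6J mice at P30. In 5 of them an aortocaval fistula, a needle puncture from the abdominal aorta into the neighbouring vena cava, had been made at P7 to give increased pulmonary flow (IPF). The other 5 were sham mice, which had the same anaesthesia and laparotomy without the puncture. Each sample is labelled as a separate mouse, and nothing states whether the mice of a group came from separate litters.

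MHC class I molecules show peptides from inside the cell to CD8+ T cells, and the lack or presence of these molecules is also read by natural killer (NK) cells. A heavy chain (H2-K1 and H2-D1 encode the classical ones of this strain) pairs with β2-microglobulin, encoded by B2m. Peptides are cut by the proteasome, carried into the endoplasmic reticulum by the TAP transporter (Tap1 and Tap2) and loaded with the help of tapasin (Tapbp). Under interferon, and constantly in many leukocytes, the catalytic subunits Psmb8, Psmb9 and Psmb10 take the places of Psmb5, Psmb6 and Psmb7 and make the immunoproteasome. Nlrc5 encodes the transactivator of class I promoters. It works through the SXY module, a row of short DNA motifs ahead of the start site whose X2 box resembles a cyclic AMP response element and whose Y box is a CCAAT box read on the other strand.

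Start-site sequences of 8 of the 10 genes were at hand from RefSeq (GRCm38.p6, 250 bases before to 50 after each start), those of all but Tap2 and Nlrc5. They are shown because Nlrc5, itself one of the 10, works through this module, and letters like its X2 and Y boxes were found in 3 of the genes. The other boxes of the module were not searched. The letters TGACG, 20 bases of any kind and ATTGG, searched on both strands, stood in the windows of B2m, H2-K1 and H2-D1 and in 31 of all 32851 windows (0.0944%). In the next lines each sequence is printed 5′ to 3′ on the strand of its gene, with TGACG and ATTGG in capitals.
B2m: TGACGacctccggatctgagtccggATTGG
H2-K1: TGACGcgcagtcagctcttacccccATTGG
H2-D1: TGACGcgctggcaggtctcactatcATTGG
The B2m sequence lies at chr2:122147609-122147638 (+) and begins 78 bases before the RefSeq start. The H2-K1 sequence lies at chr17:34000359-34000388 (-) and begins 41 or 55 bases before the start of the window's transcript, according to which of the 2 RefSeq windows of this gene is taken (RefSeq's gene record reaches farther, to 34000619, so the sequence lies within that record). The H2-D1 sequence lies at chr17:35262993-35263022 (+) and begins 101 bases before the RefSeq start, but after the gene start given in the expression table. Of the 20 bases between the capitals, H2-K1 and H2-D1 share 13, B2m and H2-K1 share 3, and B2m and H2-D1 share 2, so the heavy chain genes are alike there and B2m is not.

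Tap1 and Psmb9 face away from each other from RefSeq starts at 34187556 and 34187330 on chromosome 17, with 225 bases between them. The shared stretch held a CCAAT box and a GC box (CCGCCC). It is shown here because it precedes the RefSeq starts of both genes with the largest fold changes reported further on. In the expression table Psmb9 reaches to 34187764, so both sequences below lie within that gene as listed there. Both sequences are on the plus strand, the strand of Tap1, at chr17:34187322-34187351 and chr17:34187368-34187397, with the box in capitals.
CCAAT box: gggctcggctttCCAATcagcggctgcgcg
GC box: cagactgaggccCCGCCCcatcatcgcgca
Single boxes of this kind are common. The letters ATTGG on either strand were in 37.4% of all windows and in those of 6 of the 8 genes. These were the 3 with the spaced TGACG and ATTGG, where they are the same letters, and Tap1, Tapbp and Psmb9. The GC box was in 35.7% of all windows and in those of Tap1, Tapbp and Psmb9. Rarer was an interferon-stimulated response element core (GAAA, any 2 bases, GAAA, either strand), in 3.44% of all windows and in that of B2m alone among the 8. A match of letters is a description and not a measured binding site, and the motifs were chosen after the windows had been read.

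In the files' gene positions (GRCm38), 7 of the 10 genes lie on chromosome 17, most of them in or beside the MHC. These are Tapbp (33915899 to 33929288, plus strand), H2-K1 (33996017 to 34000333, minus), Psmb9 (34181988 to 34187764, minus), Tap1 (34187553 to 34197225, plus), Psmb8 (34197721 to 34201454, plus), Tap2 (34203527 to 34216321, plus) and H2-D1 (35262730 to 35267499, plus). B2m is on chromosome 2 (122147686 to 122153083, plus), and Psmb10 (105935735 to 105938444, minus) and Nlrc5 (94434356 to 94527272, plus) are on chromosome 8. Among the listed positions, 8 of the 10 overlap another gene, all but H2-K1 and H2-D1. Tap1 and Psmb9 overlap by 212 bases on opposite strands. B2m lies wholly within Patl2 and Psmb10 wholly within Gm16156, both on the opposite strand, but Patl2 held at most 3 reads in a sample and Gm16156 at most 4. The largest partner on the same strand was Zbtb22, which overlaps Tapbp by 3421 bases and had a mean of 14.0 FPKM. The counting is not stated to use strand, so reads of overlapping genes cannot be told apart there.

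Some facts of the whole table bear on each comparison. The sample depth, recovered from the FPKM steps, was 15483046 to 19026843 reads. Sham replicate 1 stood apart as a library, with 25486 genes above 0 against 22475 to 23575 in the other 9 and the lowest limma array weight, 0.431. Sex-linked genes parted the groups exactly: Xist, transcribed from the inactive X, was 26.8 to 43.2 FPKM in IPF and 0.0301 to 0.0767 in sham, and Ddx3y, on the Y chromosome, was listed at 0 in every IPF sample and at 14.3 to 21.4 FPKM in sham. Surgery and sex therefore cannot be told apart for any gene here. Clock genes parted the groups as well, with Nr1d1 at 1.03 to 4.28 FPKM in IPF against 31.0 to 42.6 in sham and Arntl at 3.31 to 6.85 against 0.311 to 0.452, as did the glucocorticoid target Fkbp5 at 1.61 to 9.11 against 13.7 to 19.3. The time of day of collection is not given in the sources used here. Lung identity was plain, with Sftpc, the surfactant protein of alveolar type 2 cells, at 9437 to 16514 FPKM and Ager, of type 1 cells, at 706 to 935.

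All 10 genes had a higher mean log2(FPKM + 0.1) in IPF than in sham, and 3 of the 10 rose past an adjusted p of 0.05, namely Tap1, Psmb9 and Tap2. The count was 1 without IPF replicate 1 or 4 or sham replicate 5, and 4 without sham replicate 1. Among all 20448 genes tested with limma, 3.71% were called higher in this way and 2.14% lower; none of the 10 was called lower. The log2 fold changes of the 10 ran from 0.20 to 0.56 with a median of 0.35, beside a median of 0.0016 over all genes tested. None was past the additional limit of a log2 fold change above 1, which 0.680% of all genes were. In 6 of the 10 every IPF sample was above every sham sample, which held for 4.52% of all genes tested, and 9 of the 10 were higher with an unadjusted limma p under 0.05, which held for 11.2% of all genes tested. In RNA of whole lung, more cells of a type and more RNA per cell cannot be told apart.

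**Figure D1:**
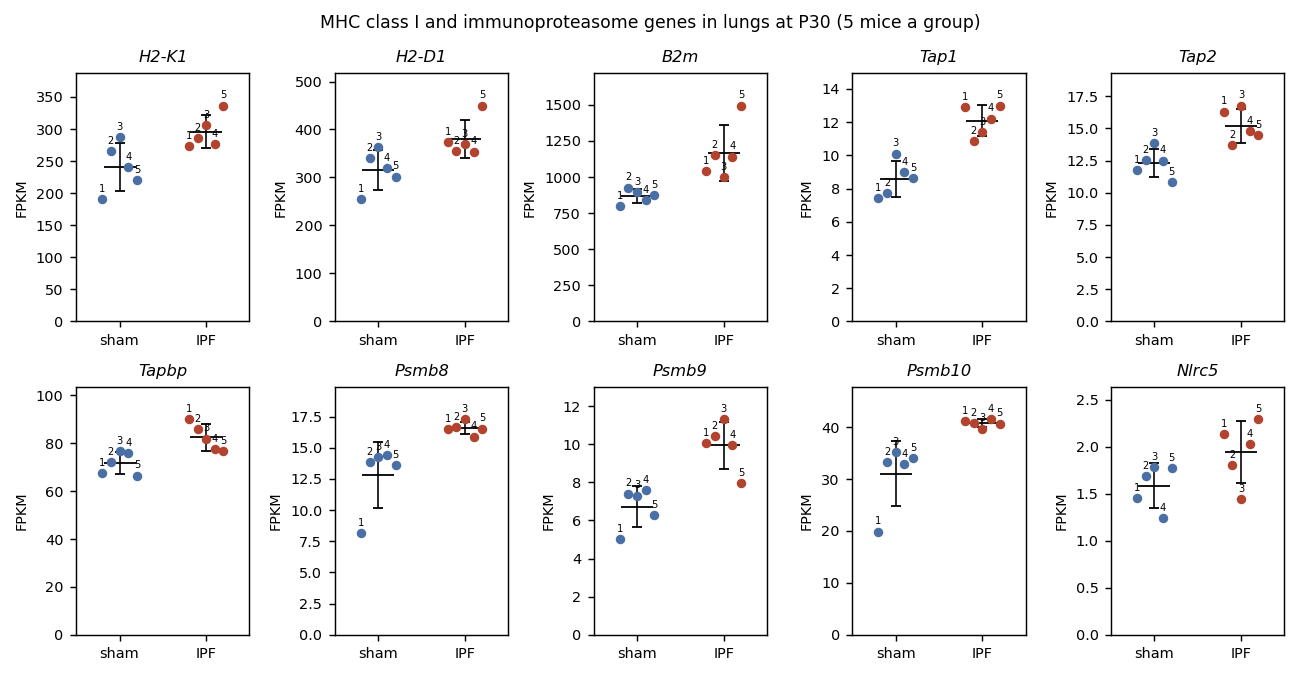
FPKM of each of the 10 genes (y axis, linear, from 0) in the 5 sham and 5 IPF samples (x axis). Points are single mice with their replicate numbers, and the black bars are the group mean and SD. Sham replicate 1 is the lowest of all 10 samples in 7 genes, and IPF replicate 5 the highest in 5.

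Between genes the FPKM levels spanned 576-fold by the means over all samples, from Nlrc5 to B2m. B2m was the most abundant in every sample, followed by H2-D1, H2-K1, Tapbp and Psmb10 in that order. Psmb8 and Tap2 were near each other, and Tap1 came before Psmb9 in each sample, though in IPF replicate 3 they were at 11.4 and 11.3 FPKM.

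The TAP transporter genes were among the 3 that rose. Tap1 encodes a chain of this peptide pump, which needs both chains to work. Its level was 12.9, 10.9, 11.4, 12.2 and 13.0 FPKM in IPF replicates 1 to 5 and 7.41, 7.72, 10.11, 8.99 and 8.63 FPKM in sham replicates 1 to 5. The lowest IPF sample was above the highest sham sample, so the groups did not overlap. The means were 12.1 ± 0.929 and 8.57 ± 1.08 FPKM (SD, n = 5 each), which gave 0.50 as the log2 fold change (SE 0.09, limma adjusted p = 0.00873). It rested on 669 to 1259 reads a sample.

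Tap2, the partner chain, had 16.3, 13.7, 16.8, 14.8 and 14.5 FPKM in IPF and 11.7, 12.5, 13.9, 12.5 and 10.9 FPKM in sham. Here the groups overlapped by a narrow margin, since IPF replicate 2 was just under sham replicate 3. The log2 fold change was 0.30 (SE 0.08), with means of 15.2 ± 1.30 and 12.3 ± 1.11 FPKM (SD, n = 5 each) and a limma adjusted p of 0.0443. This call was close to the threshold and was lost when any of 7 single samples was left out (all but IPF replicates 2 and 5 and sham replicate 3), with adjusted p up to 0.104. The Tap1 call held without each sample in turn.

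Tapbp, which bridges TAP and the empty class I molecule, stood at 90.2, 85.9, 81.9, 77.7 and 76.8 FPKM in IPF and at 67.5, 72.2, 76.7, 75.9 and 66.5 FPKM in sham. The groups did not overlap, but the lowest IPF sample was above the highest sham sample by little. The log2 fold change was the smallest of the 10, 0.20 (SE 0.07), and did not pass (limma adjusted p = 0.108).

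Of the immunoproteasome subunits, Psmb9 rose and had the largest fold change of the 10, while Psmb8 and Psmb10 did not pass the test. Psmb9 encodes β1i, the subunit that replaces Psmb6. Its levels were 10.05, 10.43, 11.33, 9.96 and 7.97 FPKM in IPF and 5.02, 7.41, 7.30, 7.60 and 6.29 FPKM in sham. The lowest IPF sample, replicate 5, was just above the highest sham sample. The means of 9.95 ± 1.23 and 6.72 ± 1.08 FPKM (SD, n = 5 each) gave 0.56 as the log2 fold change (SE 0.12, limma adjusted p = 0.0226), on 303 to 784 reads a sample. Without IPF replicate 1, 2 or 4 or sham replicate 5 the adjusted p was 0.0545, 0.0602, 0.0559 or 0.0525.

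Psmb8, encoding β5i, was even across IPF at 16.5, 16.6, 17.3, 15.9 and 16.5 FPKM, and in sham it was 8.14, 13.9, 14.2, 14.4 and 13.6 FPKM. Every IPF sample exceeded every sham sample, and sham replicate 1 lay far under the other 4. The log2 fold change was 0.40 (SE 0.14, limma adjusted p = 0.136), and the exact two-sided permutation p was 0.00794, the smallest that 5 against 5 samples allow. Psmb10, encoding β2i, had the same shape, with 41.2, 40.8, 39.7, 41.6 and 40.7 FPKM in IPF and 19.9, 33.3, 35.3, 32.9 and 33.96 FPKM in sham. Its log2 fold change was 0.42 (SE 0.14, limma adjusted p = 0.104). For both genes the result moved with sham replicate 1. Without that sample the log2 fold changes were smaller, 0.24 for Psmb8 and 0.27 for Psmb10, and both passed, with limma adjusted p of 0.0161 and 0.00728.

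**Figure D2:**
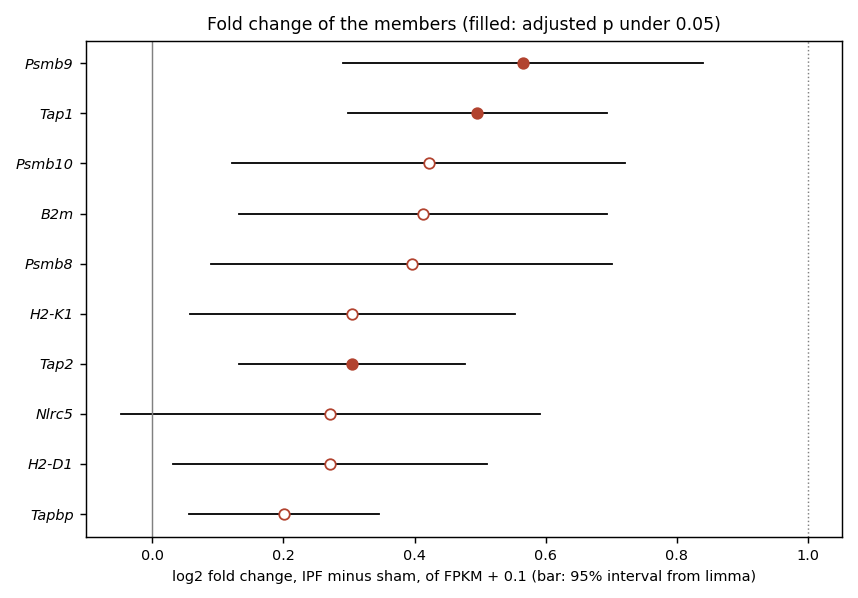
Log2 fold change of FPKM + 0.1 (x axis, IPF minus sham) of each gene (y axis, ordered by size), with 95% intervals from limma as bars. Filled points, Psmb9, Tap1 and Tap2, had an adjusted p under 0.05. The solid line marks no difference and the dotted line a log2 fold change of 1, which no interval reaches.

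Constitutive subunits were then set beside their immunoproteasome counterparts, since a ratio within a sample does not move with library scaling. Psmb10 relative to Psmb7 was 354%, 287%, 302%, 318% and 306% in IPF and 210%, 255%, 258%, 260% and 258% in sham. The groups did not overlap, and sham replicate 1 was again the lowest. The mean log2 ratio was higher in IPF by 0.34 (SE 0.08, exact two-sided permutation p = 0.00794, 0.0238 after adjustment over the 3 ratios by Benjamini-Hochberg). This was the only one of the 3 ratios past 0.05 after adjustment.

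Psmb9 relative to Psmb6 was 27.0%, 25.9%, 26.8%, 26.4% and 20.9% in IPF and 26.6%, 18.7%, 17.01%, 17.6% and 17.5% in sham. Sham replicate 1 lay among the IPF samples, and in that sample Psmb6 itself was at its lowest, 18.9 FPKM. The log2 ratio differed by 0.39 (SE 0.14, exact permutation p = 0.0397, adjusted 0.0595), and by 0.51 without sham replicate 1, where all IPF samples were above all 4 remaining sham samples. Psmb8 relative to Psmb5 was 29.5%, 25.5%, 25.9%, 28.0% and 30.7% in IPF and 27.4%, 23.2%, 26.0%, 23.7% and 26.2% in sham. These groups overlapped, and the difference of 0.14 in log2 ratio (SE 0.07) did not pass (exact permutation p = 0.103, the same after adjustment).

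**Figure D3:**
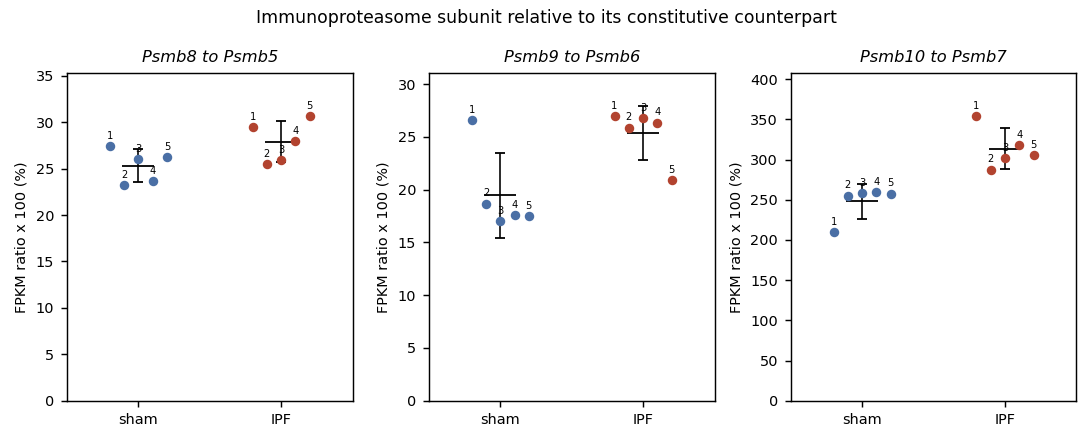
FPKM of Psmb8, Psmb9 and Psmb10 as a percentage of that of Psmb5, Psmb6 and Psmb7 (y axes, linear, from 0) in sham and IPF samples (x axes). Points are single mice with replicate numbers and black bars the mean and SD. The groups are apart for Psmb10 to Psmb7, and sham replicate 1 lies with the IPF samples for Psmb9 to Psmb6.

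The constitutive genes themselves were not called. Psmb5 was 59.8 ± 5.87 FPKM in IPF and 51.4 ± 12.7 in sham (SD, n = 5 each, limma adjusted p = 0.460). Psmb6 was 39.2 ± 2.12 and 36.1 ± 10.08 FPKM (adjusted p = 0.676). Psmb7 was 13.1 ± 0.921 and 12.4 ± 1.68 FPKM (adjusted p = 0.700), with a 95% interval of -0.13 to 0.30 for its log2 fold change.

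The heavy chain genes H2-K1 and H2-D1 had higher means in IPF without passing the test. H2-K1 was 273, 286, 306, 277 and 337 FPKM in IPF and 191, 266, 287, 241 and 221 FPKM in sham. Only IPF replicates 3 and 5 exceeded every sham sample. Its log2 fold change was 0.30 (SE 0.11, limma adjusted p = 0.155). H2-D1 was 374, 355, 369, 354 and 450 FPKM in IPF and 255, 341, 364, 319 and 302 FPKM in sham, with a log2 fold change of 0.27 (SE 0.11, adjusted p = 0.193). In H2-D1 3 of the 5 IPF samples exceeded every sham sample.

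H2-K1 and H2-D1 are close paralogs, and how reads that fit both were counted is not stated, so their sum was also taken. The sum was 676 ± 63.8 FPKM in IPF and 557 ± 78.6 in sham (SD, n = 5 each), a log2 difference of 0.29 (SE 0.11, exact two-sided permutation p = 0.0317). Without IPF replicate 1, 3 or 5 or sham replicate 1 the exact p was 0.0556 to 0.0714, and the log2 difference was 0.21 without sham replicate 1. H2-D1 made up 56.2% ± 1.29 of the sum in IPF and 56.8% ± 0.751 in sham, so the balance of the pair was nearly the same in both groups.

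B2m, the light chain shared by all class I molecules, was 1043, 1151, 998, 1141 and 1495 FPKM in IPF and 801, 927, 896, 840 and 876 FPKM in sham. The groups did not overlap, and IPF replicate 5 stood above the rest. The means were 1166 ± 195 and 868 ± 48.8 FPKM (SD, n = 5 each), with a log2 fold change of 0.41 (SE 0.13, limma adjusted p = 0.0903). The adjusted p fell under 0.05 in fits limited to genes averaging 1 FPKM or more (0.0406) and with limma voom on the recovered reads (0.0104). Per FPKM of H2-K1 plus H2-D1, B2m was 1.72 ± 0.171 in IPF and 1.58 ± 0.163 in sham, with overlapping groups.

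Nlrc5 was the least abundant of the 10 and the only one whose 95% interval included 0. It had 2.13, 1.81, 1.44, 2.03 and 2.30 FPKM in IPF and 1.45, 1.69, 1.78, 1.24 and 1.78 FPKM in sham, on 175 to 345 reads. IPF replicate 3 lay among the sham samples and the other 4 above them. The log2 fold change was 0.27 (SE 0.15, 95% interval -0.05 to 0.59, limma adjusted p = 0.341), so a rise of the size seen in Tap1 was not excluded by this interval.

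Around the 10 genes, lists of related genes were counted in the same fit. The other class I heavy chains, mostly non-classical molecules of the H2-T, H2-Q and H2-M families, had 4 of 16 tested genes called higher and none lower, with a median log2 fold change of 0.43. The count was 2 without IPF replicate 1 or sham replicate 2 or 4. The smallest adjusted p belonged to H2-K2 (log2 fold change 0.60, limma adjusted p = 0.00450), followed by the pseudogene H2-T-ps (0.90, 0.00574) and H2-T24 (0.71, 0.0208). H2-T23, which encodes Qa-1, the ligand of the NK receptor CD94/NKG2A, rose from 39.7 ± 8.25 FPKM in sham to 62.5 ± 12.4 in IPF (SD, n = 5 each), a log2 difference of 0.66 with an adjusted p of 0.0293. Abundant genes that did not pass were H2-Q4 (47.8 FPKM on average, log2 fold change 0.41, adjusted p = 0.0567), H2-Q6 (0.61, 0.140), H2-T22 (0.28, 0.150), H2-Q7 (0.42, 0.103) and H2-M3 (0.33, 0.119). These genes are near-identical in parts, so the split of reads among them is uncertain. Of the 34 genes on this list 28 were in the table, and 7 of these, all of the H2-M group, were listed at 0 in every sample.

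Elsewhere in the presentation pathway few or no genes were called. Of 14 further genes of peptide loading and trimming, among them the chaperones Calr and Hspa5, none was called by limma on FPKM or by limma voom on reads, and 2 had an unadjusted p under 0.05. Without IPF replicate 5, 2 were called higher. Their median log2 fold change was 0.015. Of 10 class I-like genes, none was called by either tool (3 with an unadjusted p under 0.05, median 0.077), and 1 was called without sham replicate 2.

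No gene in the rest of the proteasome was called. None of the 11 other 20S core subunits, the 10 activator and assembly genes and the 21 genes on the 19S list was called by limma or limma voom. The 19S list holds subunits of the 19S cap and some of its assembly factors. Only 1 gene, on the 19S list, had an unadjusted limma p under 0.05. The medians were 0.11, 0.099 and -0.016. All 11 core subunits had a higher mean in IPF, as had 7 of the 10 activator and assembly genes and 8 of the 21 genes on the 19S list. Psme1 and Psme2, which encode the interferon-induced PA28 activator, were at 49.0 ± 3.44 and 21.0 ± 4.86 FPKM in IPF and at 45.9 ± 6.52 and 20.02 ± 1.72 FPKM in sham (SD, n = 5 each). Their log2 fold changes were 0.11 (limma adjusted p = 0.611) and 0.044 (0.904), with 95% intervals of -0.11 to 0.32 and -0.26 to 0.35. Among the other abundant genes of this group, Psme3 (-0.06, adjusted p = 0.587), Psme4 (-0.17, 0.317), Psmg2 (0.20, 0.341), Psmg4 (0.32, 0.432) and Pomp (0.09, 0.750) lay on both sides of 0.

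Of 17 transcription factors that act on class I promoters, 4 rose and none fell (median log2 fold change 0.16). Irf1, an interferon-induced transcription factor, rose from 26.0 ± 1.62 FPKM in sham to 33.3 ± 0.964 in IPF (SD, n = 5 each), a log2 difference of 0.36 with a limma adjusted p of 0.00344. Irf9 (0.49, adjusted p = 0.0189) and Stat2 (0.32, 0.0287), which act in type I interferon signalling, rose too, and in these 3 genes every IPF sample was above every sham sample. The abundant factors of the SXY complex and of NF-κB did not pass. Their log2 fold changes were 0.17 for Nfya (adjusted p = 0.163), -0.01 for Nfyc (0.944), 0.15 for Atf1 (0.113), 0.14 for Rela (0.175) and 0.09 for Nfkb1 (0.454).

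**Figure D4:**
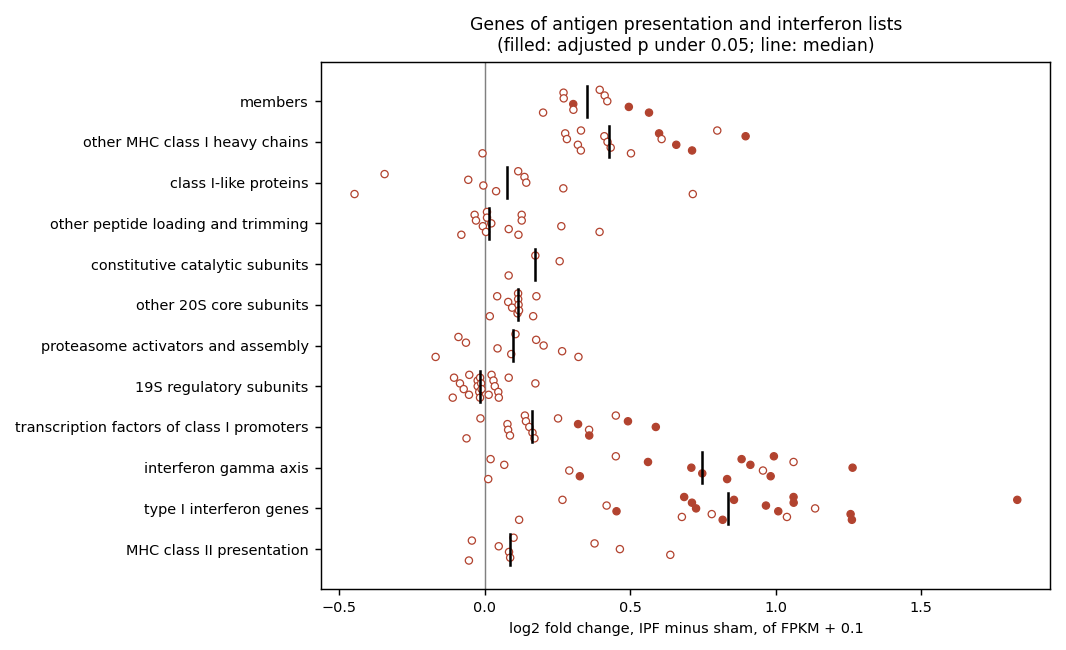
Log2 fold change of FPKM + 0.1 (x axis, IPF minus sham) of the single genes tested in 12 lists (y axis), the 10 genes examined here in the top row under "members". Points are genes, filled where the adjusted p was under 0.05, spread vertically only to be seen, and black lines are list medians. The medians of the interferon lists, 0.75 and 0.84, lie to the right of that of the 10 genes, 0.35, and the MHC class II row has no filled point.

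Lists of interferon genes outside the class I pathway had larger median log2 fold changes than the 10, with single genes on both sides of the median of the 10. Of 17 tested genes of the interferon gamma axis, 10 rose and none fell, with a median of 0.75. The immunity-related GTPases led them, with Igtp at 0.83 (limma adjusted p = 0.000811), Irgm1 at 0.71 (0.00143) and Irgm2 at 0.75 (0.00179). Of 20 type I interferon genes, 13 rose and none fell, with a median of 0.84, led by Rtp4 (1.06, 0.00179), Cmpk2 (0.73, 0.00189) and Isg15 (1.26, 0.00373). The difference between these lists and the 10 genes was not tested.

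MHC class II genes, which present outside peptides to CD4+ T cells and whose transactivator Ciita is a relative of Nlrc5, gave no call among 9 by limma or limma voom (median log2 fold change 0.088). When single samples were left out 0 or 1 was called (1 without IPF replicate 1 or 5 or sham replicate 5). Cd74, the invariant chain, was 752 ± 141 FPKM in IPF and 769 ± 107 in sham, and H2-Ab1 was 192 ± 44.8 and 179 ± 42.2 (SD, n = 5 each). The 95% intervals of their log2 fold changes were -0.39 to 0.30 and -0.34 to 0.54. Ctss (0.38, limma adjusted p = 0.102), H2-Ob (0.46, 0.156) and H2-Oa (0.64, 0.237) were the 3 with an unadjusted p under 0.05, and 7 of the 9 had a higher mean in IPF. The difference between class I and class II genes was not tested.

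Receptor families that include readers of class I, and markers of cell types, were also counted. The receptor list was not limited to receptors shown to bind class I. Of its 16 tested genes 1 rose, Klra8 (Ly49H, an activating receptor of NK cells). It went from 0.247 ± 0.126 FPKM in sham to 0.759 ± 0.253 in IPF (SD, n = 5 each, limma adjusted p = 0.0177). All 16 had a higher mean in IPF, 9 had an unadjusted p under 0.05, and the median log2 fold change was 0.49. Leukocytes express class I genes and immunoproteasome subunits strongly, so their markers were counted too. Of 8 markers of all leukocytes 4 rose, led by Ptprc, which encodes CD45 (log2 fold change 0.42, adjusted p = 0.00825), Ptpn6 (0.47, 0.0155) and Cd52 (0.83, 0.0379). The count was 2 without IPF replicate 2, 3 or 4 or sham replicate 3, and 6 by limma voom. The summed level of the 8 was 169 to 198 FPKM in IPF and 106 to 144 in sham, without overlap.

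By cell type, all 8 B cell markers rose, led by Ms4a1 (1.19, limma adjusted p = 0.00336), and they summed to 38.6 to 57.4 FPKM in IPF and 20.8 to 33.1 in sham. Of 10 NK cell markers 5 rose, led by Prf1 (1.09, 0.0129), with sums of 19.7 to 28.6 and 9.55 to 15.6 FPKM. The NK cell count was 3 without IPF replicate 1, 3 or 4 or sham replicate 1, and 7 by limma voom. Of 12 T cell markers 2 rose, Trbc2 (0.65, 0.00820) and Cd4 (0.48, 0.0440), with sums of 37.9 to 46.6 and 24.2 to 35.2 FPKM. Only 1 T cell marker was called by limma voom, or when any single sample but IPF replicate 5 was left out. For B, NK and T cells alike, the ranges of the sums did not overlap between groups.

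Of 11 macrophage and monocyte markers 2 rose (371 to 567 FPKM in sum against 310 to 513), and 1 did without IPF replicate 2, 3 or 4 or sham replicate 4. Of 8 neutrophil markers none was called by limma or limma voom, although all 8 had a higher mean in IPF (median log2 fold change 1.00) and 6 had an unadjusted p under 0.05, and their sums were 54.8 to 307 against 16.4 to 74.3 FPKM. Of 8 dendritic cell markers none was called by either tool (1 with an unadjusted p under 0.05), and 1 was without IPF replicate 5. Of 10 endothelial markers 1 rose, Cldn5 (0.56, limma adjusted p = 0.0107), with sums of 1320 to 1540 and 1192 to 1261 FPKM that did not overlap, and 2 were called by limma voom. Of 10 markers of fibroblasts and smooth muscle 1 rose and 1 fell, while none rose without IPF replicate 4 or sham replicate 2, and 2 fell without IPF replicate 5. Of 10 lung epithelial markers none was called by limma, 1 was called lower by limma voom, and 1 had an unadjusted p under 0.05. No marker was at 0 in all samples. The part of cell numbers, sex or collection time in the class I and immunoproteasome values was not tested.

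Within the groups the 10 genes did not move as 1 block. Over the 45 pairs of genes, Pearson's r between deviations from the group means had a median of 0.42 (-0.36 to 0.97, n = 10 samples that share library and depth), and of 0.19 without sham replicate 1. Psmb8 and Psmb10 had the highest r, 0.97, which was -0.45 without that sample. H2-K1 and H2-D1 had an r of 0.94 with it and 0.89 without it. The listed values of the heavy chain pair thus varied together in the remaining 9 samples, and those of the proteasome pair did not. H2-K1 and H2-D1 are close paralogs, and the part of shared reads in their r was not tested.

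The mean deviation of the 10 genes was lowest in sham replicate 1, at -0.28 on the log2 scale, and highest in sham replicate 3, at 0.17. Among 13435 other genes with a mean of at least 1 FPKM, the 8 most alike in this deviation were Abcf3 (r = 0.97, Spearman's rho = 0.87), Rabac1 (0.96, 0.95), Mapk3 (0.96, 0.85), Atp5c1 (0.96, 0.84), Ehd1 (0.95, 0.87), Mcrs1 (0.95, 0.93), Inmt (0.95, 0.83) and Cinp (0.94, 0.93), over 10 samples. None of the 8 was called between IPF and sham (limma adjusted p of 0.414 to 0.918). Without sham replicates 1 and 3, the samples farthest from the median, their r was 0.69 to 0.95.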

How the data were processed

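Whole-lung RNA-seq of 5 IPF and 5 sham mice was analysed from 1 table of 54532 genes. The deposited unit is FPKM, and the authors' methods name Fastp for trimming, HISAT2 for alignment and StringTie for quantification. Their methods name GRCm39, but the gene positions match GRCm38, and the submitters' processing notes list Bowtie 0.12.2, GRCm38, mm10 and hg38. FPKM times gene length, divided by a step found for each sample, gave whole reads within a small tolerance. These reads (15483046 to 19026843 per sample) were used for depth and for limma voom.

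The log2(FPKM + 0.1) values of genes averaging 0.1 FPKM or more were compared between IPF and sham by limma 3.58.1 (R 4.3.3, empirical Bayes, trended prior), with Benjamini-Hochberg adjustment over all 20448 genes. A fold change on this scale understates that of low genes. Ratios and the heavy chain sum were tested by exact two-sided permutation. Limma p-values rest on each gene's spread between these mice, moderated toward a trend over all genes tested. Exact p-values come from reassigning these samples to groups. Neither kind separates surgery from sex.

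Named genes are the 10 members, at most the 3 smallest adjusted p among called genes of each list, abundant genes (mean of at least 10 FPKM) of the heavy chain, subunit, activator and factor lists, the 8 most alike, and Xist, Ddx3y, Nr1d1, Arntl and Fkbp5. Sftpc, Ager, Calr, Hspa5, Cd74, H2-Ab1, Ctss, H2-Ob and H2-Oa were added after their values were seen. The members and lists were chosen with earlier results of these data known. A gene that the rule would name is not reported here. Alternatives changed the pseudocount, filter, scaling, variance model, sample weights, genes tested, replicate block or samples. Figures were drawn with matplotlib 3.10.9.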

Additional observations from a re-analysis of the deposited data

Results flagged for a closer look

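A sample far from the other 4 of its group was found in 7 of 28 groups of 5 values checked (10 genes, 3 ratios and the heavy chain sum, in IPF and in sham), where chance gives about 1 in 20. These quantities share samples and genes, so the 7 are not separate findings. Sham replicate 1 accounts for 4 of them. It had 8.14 FPKM of Psmb8 (others 13.6 to 14.4), 19.9 FPKM of Psmb10 (others 32.9 to 35.3), a Psmb10 to Psmb7 ratio of 209.7% (others 255% to 259.8%) and a Psmb9 to Psmb6 ratio of 26.6% (others 17.01% to 18.7%). IPF replicate 5 accounts for the other 3. It had 449.8 FPKM of H2-D1 (others 354 to 374), 786 FPKM of H2-K1 plus H2-D1 (others 631 to 675) and a Psmb9 to Psmb6 ratio of 20.9% (others 25.9% to 27.0%). So in IPF replicate 5 the heavy chains were the highest of its group and Psmb9, relative to Psmb6, the lowest.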

How the results depend on the processing

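No gene of the 10 changed direction in any of 22 alternatives. Tap1 passed in all 22 (adjusted p 0.00255 to 0.0288), Psmb9 in 12 of 12 settings and without 6 of 10 single samples, and Tap2 in 9 of 12 and without 3 of 10. The number of the 10 called was 2 to 4 across the 12 settings and 1 to 4 without single samples (1 without IPF replicate 1 or 4 or sham replicate 5, and 4 without sham replicate 1). Of all genes, 1749 were called with array weights and 775 to 1620 without single samples (775 without IPF replicate 4, against 1196 with all). With the replicate number as a block, 3 of the 10 genes were called, and the exact p of the Psmb9 to Psmb6 ratio (0.391), the Psmb10 to Psmb7 ratio (0.339) and the heavy chain sum (0.286) was 0.0625, the smallest that 5 pairs allow. Same-numbered samples did not deviate together (r of -0.020 to 0.095), so the numbers pair no samples. Without single samples the log2 difference was 0.347 to 0.509 for Psmb9 to Psmb6 (exact p 0.0159 to 0.0794), 0.279 to 0.369 for Psmb10 to Psmb7 and 0.209 to 0.345 for the heavy chain sum. The causes were not tested. Nlrc5 had the fewest reads of the 10 genes, 175 to 345 a sample.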
